A study of Mus musculus with 11 samples.

Results

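LacNAc, or N-acetyllactosamine, is the galactose-GlcNAc unit that glycans repeat into chains. The transcripts described here encode 10 enzymes that build, branch or end such chains: B4galt1, B4galt2, B4galt3, B4galt4, B3gnt2, B3gnt7, B3gnt8, Gcnt2, B3galt5 and Ggta1. They were taken from a chip of 1246 probe sets, 963 of them named here for 909 genes, by the RefSeq transcript in the probe set's identifier. Of the 10 genes 9 matched 1 probe set each, and B3gnt8 was not analysed here. No measured value entered this choice, but earlier results of these arrays were known when it was made. The B3gnt2 identifier carries a suffix for probes that may not be specific to 1 transcript. Each probe set names 1 transcript, out of 4 curated ones for Ggta1 and B3galt5 and 3 for Gcnt2. There are 2 for B4galt1, B4galt2, B4galt4 and B3gnt2, and 1 for B4galt3 and B3gnt7.

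RNA came from splenic CD4+ T cells of female C57BL/6 mice, with no allele or treatment that the labels name, and each sample was hybridised to 1 of 11 arrays. The Treg samples are CD4+CD25+(CD45RBlow) cells (n = 3, replicates 1, 2 and 4), with no age in the labels. The CD45RBlow samples are CD4+CD25-CD45RBlow cells, labelled activated/memory (n = 4), and the CD45RBhigh samples are CD4+CD25-CD45RBhigh cells, labelled naïve (n = 4), both from mice 4 to 6 weeks old. A difference in age thus cannot be told apart from the sort in comparisons with Treg samples. No label ties a replicate to an animal or says how many mice were pooled, so p-values measure the spread between these samples, which may be technical.

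Values are log2 expression from Robust Multichip Average (RMA), with array medians of 4.85 to 4.94, and the number of arrays limits their precision. Of 9 Treg markers, 4 were measured (Il2ra, Il10, Itgae and Klrg1), and all 4 were higher in Treg than in both other populations. All 4 were also higher in CD45RBlow than in CD45RBhigh arrays, Il2ra by 2.10, Klrg1 by 2.04, Itgae by 1.95 and Il10 by 1.09. Il2ra, which encodes CD25, averaged 9.84 in Treg, 6.17 in CD45RBlow and 4.07 in CD45RBhigh arrays. Foxp3, Cd3e and Cd4 had no matched row and were not used here. Other cell types' markers moved too. Of the CD8 T and NK markers, Klrd1 averaged 3.93 in Treg, 8.28 in CD45RBlow and 9.22 in CD45RBhigh arrays, and was lower in Treg than in both. The other two, Klra3 and Klra8, averaged 2.61 to 4.27 and were lower in Treg than in CD45RBhigh arrays by log2 differences of -0.45 and -0.40, each a call lost in 7 of the 11 fits that left out 1 array, among them each fit without a Treg array. Neither passed against CD45RBlow. The mean of these 3 lay at 3.30 to 3.57 in Treg, 4.97 to 5.27 in CD45RBlow and 5.34 to 5.76 in CD45RBhigh arrays, and Klrd1 carries most of that difference. The mean of the B cell markers Cd22 and Cd72 lay at 7.24 to 7.40 in Treg, 6.82 to 7.19 in CD45RBlow and 6.78 to 6.96 in CD45RBhigh arrays. Both were higher in Treg than in CD45RBhigh arrays, by 0.29 and 0.54, calls lost without Treg replicate 1. Against CD45RBlow they went opposite ways in Treg arrays, Cd22 at -0.30 (adjusted p = 0.0235, lost in 5 of the 11 fits that left out 1 array, each without a Treg array or CD45RBlow replicate 2 or 3) and Cd72 at 0.85 (adjusted p = 0.00154). Cd22 was also higher in CD45RBlow than in CD45RBhigh arrays, by 0.59 (adjusted p = 0.00015 by limma). That call was kept in all 11 fits that left out 1 array. Cd72 differed there by -0.30 and did not pass (adjusted p = 0.156). Cd8a was not used here. The platelet marker Selp was higher in Treg than in CD45RBhigh arrays, by 0.37, a call lost without Treg replicate 4. Selp was also higher in Treg than in CD45RBlow arrays, by 0.48, a call kept in all 11 fits that left out 1 array. Pf4 in Treg differed by 0.062 from CD45RBhigh and by 0.19 from CD45RBlow arrays, and neither passed. All 7 markers of activated or memory cells were higher in CD45RBlow than in CD45RBhigh arrays, and 6 of 7 were lower in Treg than in CD45RBlow arrays. Their mean lay at 7.07 to 7.14 in Treg, 8.76 to 9.75 in CD45RBlow and 6.25 to 6.85 in CD45RBhigh arrays. The 5 measured myeloid markers differed by -0.07 to 0.04 between Treg and CD45RBhigh arrays. The part of other cell types in the results below was not tested, and in sorted bulk RNA fewer cells of a type and less RNA per cell cannot be told apart.

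Chains grow when a beta-1,4-galactosyltransferase and a beta-1,3-N-acetylglucosaminyltransferase act in turn on a glycan's end. The chain can be bent into branches by Gcnt2, begun as a type 1 unit by B3galt5, or closed with an alpha-linked galactose by Ggta1. In T cells such chains on surface glycoproteins are ligands of galectins, which cross-link receptors.

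B4galt1 is the main galactosyltransferase of LacNAc on N-glycans and, with alpha-lactalbumin, the lactose synthase. Its log2 values were 10.29, 10.29 and 10.27 in Treg arrays, 10.45, 10.51, 10.58 and 10.49 in CD45RBlow arrays, and 10.49, 10.52, 10.47 and 10.77 in CD45RBhigh arrays. All Treg arrays lay below all arrays of the other populations. The log2 difference Treg minus CD45RBhigh was -0.28 (SE 0.076), with an adjusted p of 0.0228 by limma. Against CD45RBlow it was -0.23 (SE 0.076) and missed the threshold of 0.05, with an adjusted p of 0.0863. CD45RBhigh replicate 4 stood above its group. Without it Treg minus CD45RBlow passed at an adjusted p of 0.0167. The call against CD45RBhigh was lost without any 1 of the 3 Treg arrays, at adjusted p of 0.0615 to 0.0663. With quantile normalization the 2 differences were -0.17 (adjusted p = 0.145) and -0.042 (adjusted p = 0.816).

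B4galt2 and B4galt3 add galactose to GlcNAc as B4galt1 does. B4galt2 measured 5.30, 5.51 and 5.60 in Treg, 5.27, 5.24, 5.82 and 5.50 in CD45RBlow, and 5.56, 5.44, 5.75 and 5.34 in CD45RBhigh arrays. The populations overlapped throughout. Its 95% intervals ran from -0.37 to 0.27 for Treg minus CD45RBhigh, -0.31 to 0.34 for Treg minus CD45RBlow and -0.36 to 0.24 for CD45RBlow minus CD45RBhigh.

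For B4galt3 the arrays read 7.52, 7.40 and 7.83 in Treg, 7.77, 7.59, 7.96 and 7.85 in CD45RBlow, and 7.96, 7.93, 8.27 and 8.59 in CD45RBhigh. Treg and CD45RBhigh arrays did not overlap, and the CD45RBlow arrays lay between and overlapped both. For Treg minus CD45RBhigh the difference was -0.61 (SE 0.16, adjusted p = 0.0235), a level 1.52-fold higher in CD45RBhigh. This call was lost without Treg replicate 1, without Treg replicate 2 and without CD45RBhigh replicate 3, at adjusted p of 0.0809, 0.109 and 0.0576. With replicate number as a block the difference was -0.56 (SE 0.094, adjusted p = 0.00097). Between CD45RBlow and CD45RBhigh it was -0.39 (SE 0.15) and missed the threshold at an adjusted p of 0.122. A fit that blocks on replicate number called the same difference, with an SE of 0.084 and an adjusted p of 0.00670. It was negative in 4 of 4 replicate numbers. The Treg arrays differed from CD45RBlow by -0.21, with an interval from -0.57 to 0.15.

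B4galt4 adds galactose to GlcNAc and, as known for the human enzyme, prefers GlcNAc with a 6-sulfate. It had log2 values of 5.57, 5.66 and 5.23 in Treg, 4.75, 4.96, 4.51 and 4.64 in CD45RBlow, and 4.35, 4.35, 4.06 and 4.31 in CD45RBhigh arrays. The 3 populations did not overlap, and Treg stood highest and CD45RBhigh lowest. The Treg level was higher than that of CD45RBhigh by 1.22 (SE 0.13), or 2.33-fold, with an adjusted p of 3.23e-05. It exceeded CD45RBlow by 0.77 (SE 0.13, adjusted p = 0.00181). In turn CD45RBlow exceeded CD45RBhigh by 0.45 (SE 0.12, adjusted p = 0.0320). This last call was lost without CD45RBlow replicate 1 or 2 or CD45RBhigh replicate 3 or 4, at adjusted p of 0.0518 to 0.0910. The myeloid marker Csf1r, which CD4+ T cells are not known for, read 5.07, 5.03 and 5.02 in the 3 populations. It was the brightest of the 5 measured myeloid markers. Over the populations Siglec1 averaged 4.69 to 4.79, Mrc1 3.34 to 3.38, Adgre1 2.67 to 2.74 and Clec4a2 2.23 to 2.32. No detection call is given, so how far values near 5 or lower lie above background is not known. This holds for B4galt2, B4galt4, B3gnt7, B3galt5 and Gcnt2. Their differences may be understated, and how far background enters them was not tested.

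**Figure D1:**
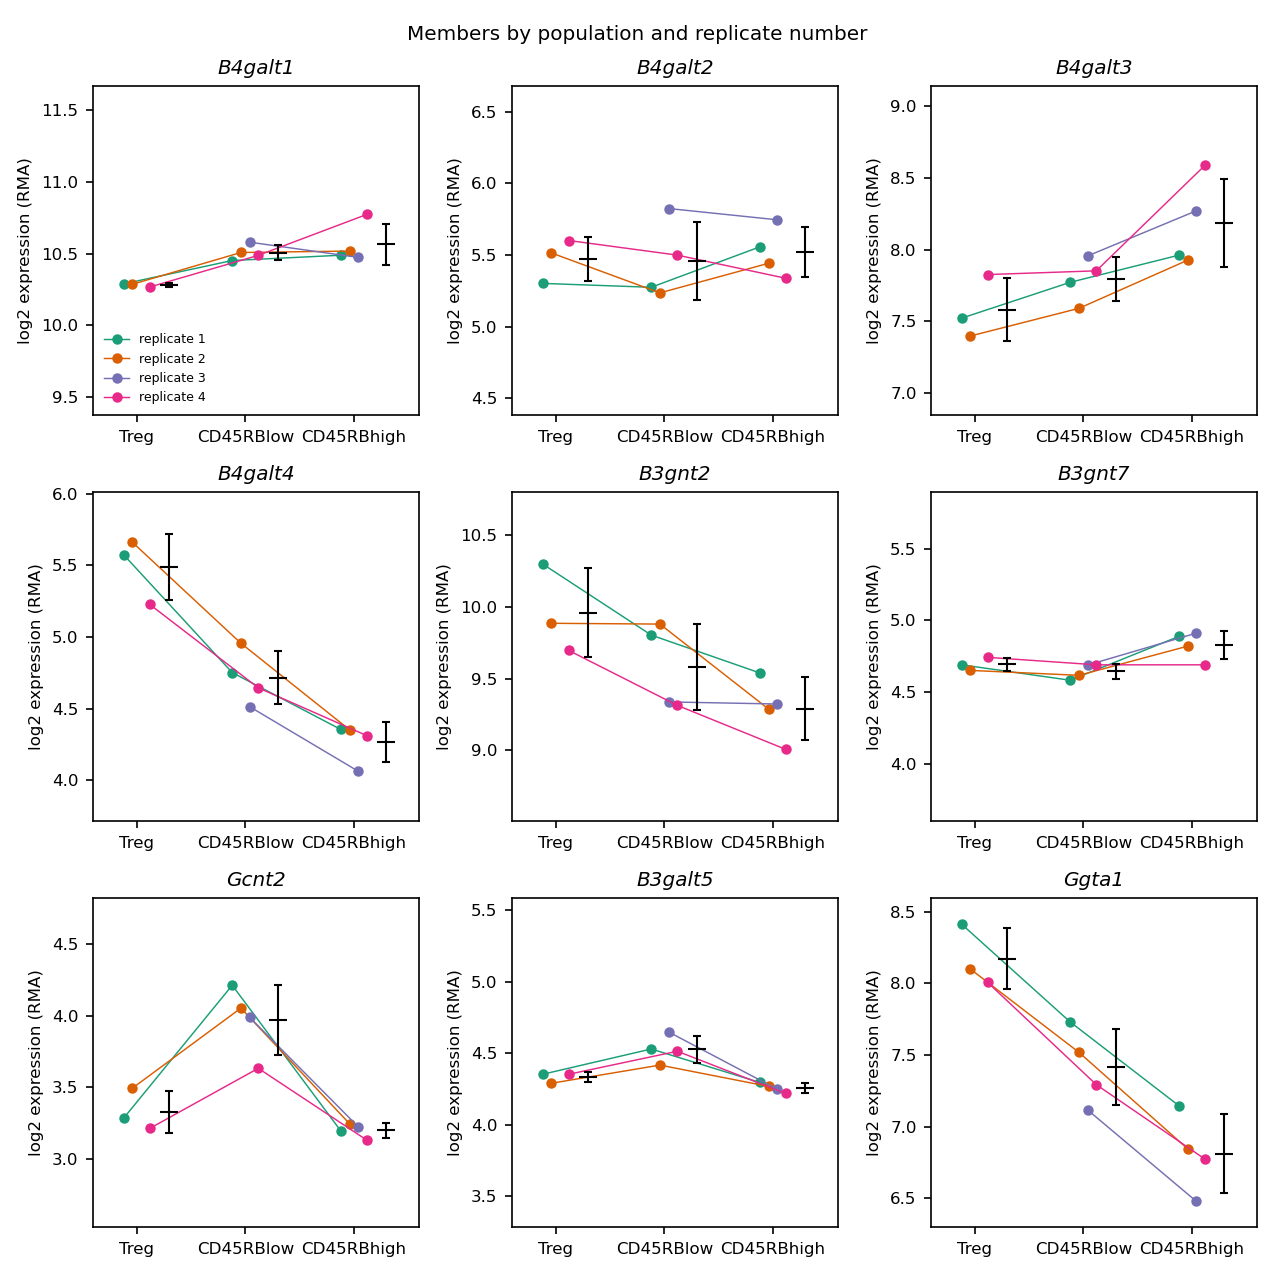
Log2 expression (RMA, vertical axes, equal span in every panel) of the 9 measured genes in Treg, CD45RBlow and CD45RBhigh arrays. Points are arrays, coloured and joined by replicate number, and the bars are the mean and SD. B4galt4 and Ggta1 run down from Treg to CD45RBhigh, and Gcnt2 peaks in CD45RBlow arrays.

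B3gnt2 is the principal enzyme that adds GlcNAc to extend poly-LacNAc. It measured 10.30, 9.89 and 9.70 in Treg, 9.80, 9.88, 9.34 and 9.31 in CD45RBlow, and 9.54, 9.29, 9.32 and 9.01 in CD45RBhigh arrays. Every Treg array lay above every CD45RBhigh array, while CD45RBlow arrays overlapped both. The difference between Treg and CD45RBhigh was 0.67 (SE 0.19, adjusted p = 0.0273). It was lost without Treg replicate 1 or 2 or CD45RBhigh replicate 2, 3 or 4, at adjusted p of 0.0514 to 0.120. The difference stayed between 0.50 and 0.80 without each array in turn. With the replicate block it was 0.64 (SE 0.11, adjusted p = 0.00092). The steps through CD45RBlow passed the threshold with the replicate block alone among the fits of all arrays. Treg minus CD45RBlow was 0.38 (adjusted p = 0.263), and 0.34 with the block (adjusted p = 0.0446). CD45RBlow minus CD45RBhigh was 0.29 in both fits, with adjusted p of 0.275 and, blocked, 0.0487.

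B3gnt7 extends chains that carry keratan sulfate. Its arrays read 4.69, 4.65 and 4.74 in Treg, 4.58, 4.62, 4.69 and 4.69 in CD45RBlow, and 4.89, 4.82, 4.91 and 4.69 in CD45RBhigh. CD45RBhigh replicates 1 to 3 stood above every other array, and replicate 4 did not. CD45RBlow differed from CD45RBhigh by -0.18 (SE 0.061, adjusted p = 0.0788), and -0.23 without CD45RBhigh replicate 4, with an adjusted p of 0.0266. Treg minus CD45RBhigh was -0.13, with an interval from -0.28 to 0.012, and Treg minus CD45RBlow was 0.050, with an interval from -0.095 to 0.20. The value 4.69 is exactly equal in 3 of these arrays, and 679 of the 1246 probe sets hold at least 2 exactly equal values.

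Gcnt2 adds the beta-1,6 branch that turns a linear LacNAc chain into the branched I antigen. Its log2 values were 3.28, 3.49 and 3.21 in Treg, 4.21, 4.05, 3.99 and 3.63 in CD45RBlow, and 3.20, 3.25, 3.22 and 3.13 in CD45RBhigh arrays. All CD45RBlow arrays lay above all others. Over CD45RBhigh the CD45RBlow level was higher by 0.77 (SE 0.11, adjusted p = 0.000606), or 1.71-fold. Treg cells differed from CD45RBlow by -0.64 (SE 0.12, adjusted p = 0.00407). Treg minus CD45RBhigh was 0.13, with an interval from -0.13 to 0.40. The means of 3.33 in Treg and 3.20 in CD45RBhigh lie under 3.64, the first quartile of all values, so the differences from CD45RBlow may be understated. CD45RBlow replicate 4, at 3.63, lies under it too, and how far the CD45RBlow values lie above background is not known.

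B3galt5 links galactose beta-1,3 to GlcNAc and so makes type 1 chains. It read 4.35, 4.29 and 4.35 in Treg, 4.53, 4.42, 4.65 and 4.51 in CD45RBlow, and 4.30, 4.27, 4.25 and 4.22 in CD45RBhigh arrays. Here too every CD45RBlow array lay above all others, by little. The excess of CD45RBlow over CD45RBhigh was 0.27 (SE 0.057, adjusted p = 0.00940), a 1.21-fold level. Between Treg and CD45RBlow the difference was -0.20 (SE 0.062, adjusted p = 0.0685). This passed in 4 of 22 alternatives, at adjusted p of 0.0358 to 0.0467. These were a random block, equal array medians, quantile normalization and the fit without CD45RBlow replicate 2. With replicate number as a fixed block the difference was -0.18 and missed the threshold, at an adjusted p of 0.119. Treg minus CD45RBhigh was 0.074, with an interval from -0.062 to 0.21.

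Ggta1 makes the alpha-galactose epitope of most mammals, and its human counterpart is inactive. It measured 8.41, 8.10 and 8.01 in Treg, 7.73, 7.52, 7.12 and 7.29 in CD45RBlow, and 7.15, 6.85, 6.48 and 6.77 in CD45RBhigh arrays. Treg arrays lay above all others, and CD45RBlow replicate 3 alone lay below the highest CD45RBhigh array. Treg cells exceeded CD45RBhigh by 1.36 (SE 0.17, adjusted p = 0.000164), a 2.57-fold level. Within replicate numbers 1, 2 and 4 this difference was 1.23 to 1.27. They exceeded CD45RBlow by 0.76 (SE 0.17, adjusted p = 0.0140), and missed the threshold without Treg replicate 1 (adjusted p = 0.0732). The step between CD45RBlow and CD45RBhigh was 0.60 (SE 0.16, adjusted p = 0.0326). It was 0.52 to 0.67 within the 4 replicate numbers. This last call was lost without CD45RBlow replicate 1 or 2 or CD45RBhigh replicate 2, 3 or 4, at adjusted p of 0.0626 to 0.0974, and passed with the replicate block at 2.49e-05.

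The comparison of Treg with CD45RBhigh cells sets regulatory against naive-type cells. B4galt4, Ggta1 and B3gnt2 were higher in Treg cells, and B4galt3 and B4galt1 were lower. The 4 beta-1,4-galactosyltransferases thus divided into 1 that rose, 2 that fell and 1, B4galt2, with a difference of -0.048. In all, 5 of 9 genes passed the threshold, against 18.9% of all probe sets. By direction 3 were higher, against 10.3% of probe sets, and 2 lower, against 8.59%. The median difference was 0.074 over the 9 genes and -0.039 over all probe sets. Values of the 2 populations did not overlap in 5 of 9 genes, against 25.0% of probe sets. The blocked fit called 5 of 9, against 26.5%. The count was 2 without Treg replicate 1 or Treg replicate 2, and 3 without CD45RBhigh replicate 3.

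CD45RBlow cells share the low CD45RB of Treg cells but lack CD25. Against them, Treg cells had more B4galt4 and Ggta1 transcript and less Gcnt2 transcript. Of the 9 genes 3 passed, against 12.5% of all probe sets: 2 higher, against 6.74%, and 1 lower, against 5.78%. The median difference was 0.014 over the 9 genes and 0.044 over all probe sets. Groups did not overlap in 5 of 9 genes, among them B4galt1 and B3galt5, against 21.3% of probe sets. With the replicate block 4 of 9 passed, against 19.7%.

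The comparison of CD45RBlow with CD45RBhigh cells sets memory-type against naive-type cells without CD25. Gcnt2, Ggta1, B4galt4 and B3galt5 were higher in CD45RBlow cells. These 4 of 9 genes compare with 12.6% of all probe sets called, and with 7.62% called higher. No gene of the 9 was called lower by limma, against 4.98% of probe sets, and at an unadjusted p under 0.05, 6 of 9 passed in either direction, against 28.4% of probe sets. The median difference was 0.27 over the 9 genes and -0.081 over all probe sets. Groups did not overlap in 3 of 9, against 17.8%. The replicate block called 6 of 9, adding B3gnt2 higher and B4galt3 lower, against 21.7% of probe sets. Without CD45RBlow replicate 1, CD45RBlow replicate 2 or CD45RBhigh replicate 3 the count of 4 was 2. The 3 comparisons share arrays, so their calls are not independent of each other.

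**Figure D2:**
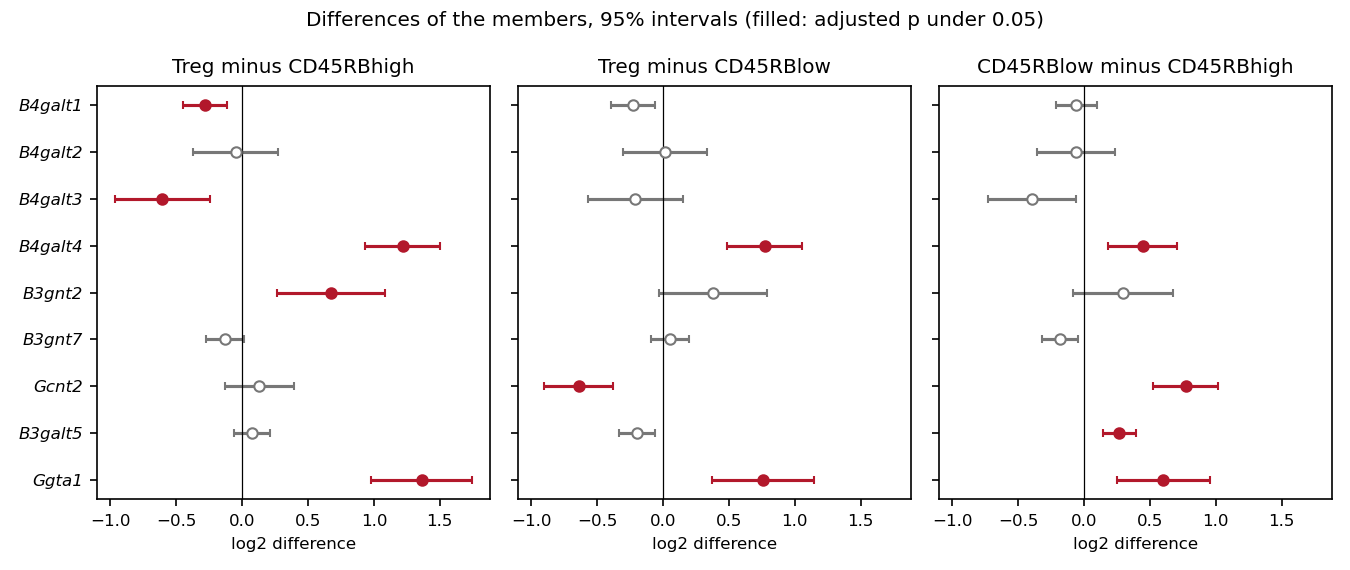
Log2 differences with 95% intervals (horizontal axes) of the 9 genes in Treg minus CD45RBhigh, Treg minus CD45RBlow and CD45RBlow minus CD45RBhigh. Filled points passed an adjusted p of 0.05. B4galt4 and Ggta1 are filled and above 0 in all 3 panels, and Gcnt2 is below 0 against CD45RBlow.

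Within populations, replicates 3 and 4 stood apart from replicates 1 and 2 in 20.6% of all probe sets with population in the model, and in 4 of the 9 genes. B4galt3 was higher in replicates 3 and 4, by 0.36 (adjusted p = 0.00527). B3gnt2, Ggta1 and B4galt4 were lower there, with differences of -0.39, -0.36 and -0.26 and adjusted p of 0.0114, 0.0138 and 0.0160. Sample titles share their ending across populations within a replicate number, but the labels do not say what that number marks. Treg minus CD45RBhigh was therefore taken within each set as well, where replicates 3 and 4 hold 1 Treg array, assumed to vary like the other populations' arrays. Within replicates 1 and 2 it was 1.26 for B4galt4, 1.26 for Ggta1, 0.68 for B3gnt2, -0.48 for B4galt3 and -0.22 for B4galt1. Within replicates 3 and 4 the same differences were 1.04, 1.38, 0.53, -0.60 and -0.36. Replicates 1 and 2 called 4 of the 9, against 20.6% of probe sets, and replicates 3 and 4 called B4galt4 and Ggta1 alone, against 7.06%, with 4 at an unadjusted p under 0.05, against 23.1%.

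The differences in the other comparisons kept their sign within both sets for each gene called. Treg minus CD45RBlow was 0.76 and 0.65 for B4galt4, 0.63 and 0.80 for Ggta1, and -0.74 and -0.60 for Gcnt2, in replicates 1 and 2 and in replicates 3 and 4. These 3 passed in the first set, against 14.8% of probe sets. In the second set 0 of 9 passed by limma, against 3.93%, and 3 did at an unadjusted p under 0.05, against 17.9%. CD45RBlow minus CD45RBhigh was 0.91 and 0.63 for Gcnt2, 0.19 and 0.35 for B3galt5, 0.50 and 0.39 for B4galt4, and 0.63 and 0.58 for Ggta1. Of these, Gcnt2, B4galt4 and Ggta1 passed in replicates 1 and 2, against 15.2% of probe sets. In replicates 3 and 4, 0 of 9 passed by limma, against 5.06%, and 5 did at an unadjusted p under 0.05, against 18.3%.

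**Figure D3:**
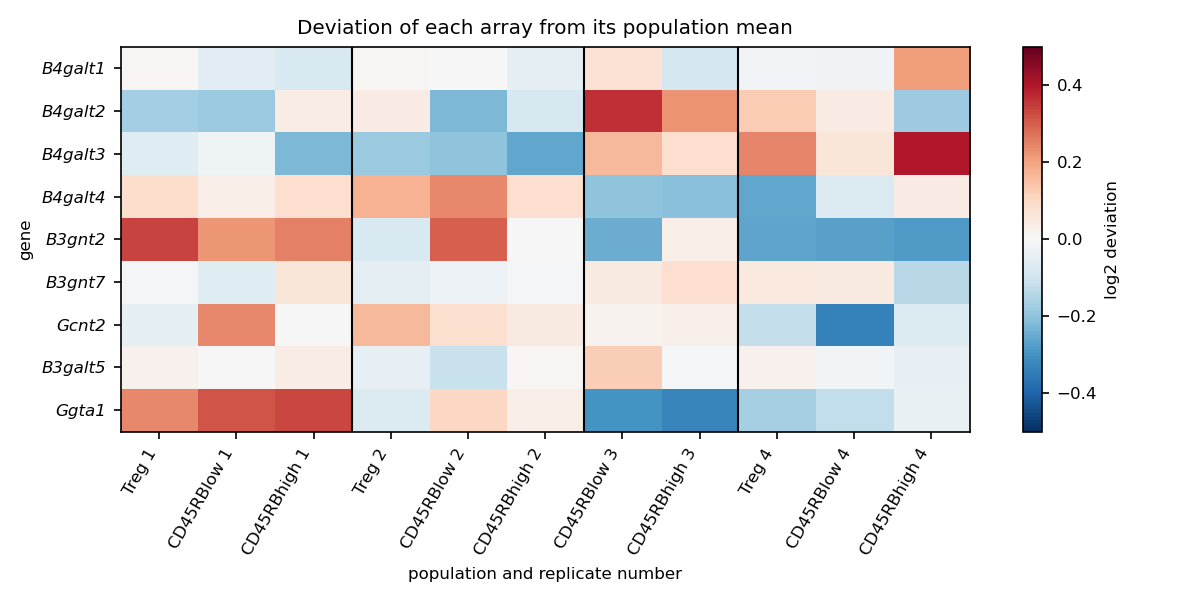
Deviation of each array from its population mean (colour, log2) for the 9 genes (rows), with arrays in columns ordered by replicate number. Ggta1 and B3gnt2 are above their means in replicate 1 of all 3 populations, and B4galt3 is above its means in replicates 3 and 4.

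Across the 11 arrays B4galt4 and Ggta1 rose and fell together, with a Pearson r of 0.96, and B3gnt2 followed Ggta1 with r = 0.88 and B4galt4 with r = 0.83. With each population's mean taken away these were 0.68, 0.74 and 0.58. Over all 36 pairs of the 9 genes r ran from -0.85 to 0.96, with a median of -0.012. Arrays share their population and replicate number, so r is a description only. Among all named genes, Igf1r, Il1r2 and Itgae were most like B4galt4 over the 11 arrays (r = 0.98 each). Those most like Ggta1 were Klrg1 (r = 0.97), B4galt4 and Il1rl1 (r = 0.96 each). Gcnt2 was most like Il18rap (r = 0.96), Il2 (r = 0.96) and Ifng (r = 0.95). Itgae and Klrg1 are also on the list of Treg markers above, and Ifng is on that of activated or memory cells.

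Promoters are shown for the 4 genes with the largest Treg to CD45RBhigh differences, since 3 of them moved together and B4galt3 moved the other way. Each runs 5′ to 3′ from 250 bases before to 50 after the RefSeq start on GRCm38.p6. B4galt3 is at chr1:171270078-171270377 (+), B4galt4 at chr16:38742009-38742308 (+), B3gnt2 at chr11:22859686-22859985 (-) and Ggta1 at chr2:35461400-35461699 (-). Capitals mark matches to any of 5 motifs, read on both strands: the GC box GGGCGG, the CCAAT box CCAAT, the STAT motif TTCNNNGAA, the forkhead motif TGTTTAC and the RUNX motif TGTGGT.
B4galt4: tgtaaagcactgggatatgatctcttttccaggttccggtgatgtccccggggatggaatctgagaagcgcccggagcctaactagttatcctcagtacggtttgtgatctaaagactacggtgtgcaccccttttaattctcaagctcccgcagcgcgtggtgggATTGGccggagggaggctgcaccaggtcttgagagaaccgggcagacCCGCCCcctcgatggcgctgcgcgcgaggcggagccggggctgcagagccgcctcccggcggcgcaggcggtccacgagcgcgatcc
Ggta1: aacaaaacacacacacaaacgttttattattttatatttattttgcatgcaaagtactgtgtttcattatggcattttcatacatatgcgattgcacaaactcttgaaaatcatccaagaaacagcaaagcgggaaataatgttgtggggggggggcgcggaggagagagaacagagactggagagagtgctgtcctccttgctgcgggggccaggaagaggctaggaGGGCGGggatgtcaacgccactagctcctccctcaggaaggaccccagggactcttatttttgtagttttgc
B3gnt2: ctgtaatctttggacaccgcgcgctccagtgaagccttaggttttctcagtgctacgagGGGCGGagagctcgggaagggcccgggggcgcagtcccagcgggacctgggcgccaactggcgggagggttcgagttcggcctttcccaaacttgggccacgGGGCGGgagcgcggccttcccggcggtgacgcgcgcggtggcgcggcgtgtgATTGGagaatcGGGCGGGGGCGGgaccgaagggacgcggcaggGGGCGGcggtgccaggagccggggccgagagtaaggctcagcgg
B4galt3: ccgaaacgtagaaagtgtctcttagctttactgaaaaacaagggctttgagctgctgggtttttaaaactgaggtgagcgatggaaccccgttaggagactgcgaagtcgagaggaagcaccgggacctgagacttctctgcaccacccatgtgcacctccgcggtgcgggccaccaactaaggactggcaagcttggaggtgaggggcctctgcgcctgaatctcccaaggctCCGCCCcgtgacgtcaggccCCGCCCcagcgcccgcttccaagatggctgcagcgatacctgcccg

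The B4galt4 window holds 1 GC box and 1 CCAAT box, the Ggta1 window 1 GC box, the B3gnt2 window 5 GC boxes, of which 2 are adjacent, and 1 CCAAT box, and the B4galt3 window 2 GC boxes. No motif overlaps another in them, and the STAT, forkhead and RUNX letters are not in these windows. GC content was 62.7% for B4galt4, 46.7% for Ggta1, 71.3% for B3gnt2 and 59.7% for B4galt3, against a median of 52.7% over 32851 RefSeq windows of this length. The GC box letters were in 9 of 14 windows of the 10 genes, B3gnt8 included, against 35.7% of all windows. The CCAAT box was in 2 of 14, against 37.4%, the STAT motif in 3, against 8.30%, and the RUNX motif in 2, against 16.8%. The forkhead letters were in 0 of 14, against 3.65%. These matches describe letters and not binding.

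Related gene lists give the setting of these 9 genes. Their counts are to be read against all probe sets, of which 18.9% passed in Treg against CD45RBhigh, 12.5% in Treg against CD45RBlow and 12.6% in CD45RBlow against CD45RBhigh. In the blocked fit these shares were 26.5%, 19.7% and 21.7%, and at an unadjusted p under 0.05 they were 30.0%, 22.6% and 28.4%. A list of other chain transferases, not all of which make LacNAc or type 1 units, had 17 measured genes. Of these 17, 1 was higher and 1 lower in Treg than in CD45RBhigh cells, against 18.9% of all probe sets in either direction. Their median difference was 0.0060. Gcnt1, which starts the core 2 branch of O-glycans, differed by 1.35 (adjusted p = 0.00137), against a CD45RBhigh mean of 2.78 that lies under the first quartile, and its probe set carries the suffix for limited specificity. B4galt7, whose acceptor is the xylose that links proteoglycan chains and not GlcNAc, differed by -0.35 (adjusted p = 0.0152), a call lost without Treg replicate 1 or 4. The same 2 genes passed between CD45RBlow and CD45RBhigh cells, at 1.10 and -0.30, the B4galt7 call being lost in 5 of the 11 fits that left out 1 array. Between Treg and CD45RBlow cells 0 of 17 passed by limma, 1 did at an unadjusted p under 0.05, and 1 passed in the blocked fit.

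The antennae that carry LacNAc are made by some of 11 measured enzymes that trim, branch or fucosylate N-glycans. Of these 11, 1 was lower in Treg than in CD45RBhigh cells, against 8.59% of all probe sets. This was Man2a2, a mannosidase that trims the glycan before branching, at -1.08 (adjusted p = 0.00230). In Treg against CD45RBlow and in CD45RBlow against CD45RBhigh cells 0 of 11 passed by limma, with 1 and 4 at an unadjusted p under 0.05 and 1 and 2 in the blocked fit. Supply of UDP-galactose and UDP-GlcNAc, the donors of both steps, was measured by 14 genes. Here 0 of 14 passed by limma in each comparison, with 1, 1 and 4 at an unadjusted p under 0.05 and 1, 2 and 2 in the blocked fit.

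Caps on LacNAc ends compete with Ggta1 for galactose or decorate GlcNAc, and 15 were measured. St3gal6, which caps galactose with sialic acid, was far lower in Treg than in CD45RBhigh cells, at -2.64, and than in CD45RBlow cells, at -3.27 (adjusted p of 1.14e-07 and 8.16e-08). Fut7, which fucosylates sialylated LacNAc, was higher in Treg cells by 0.95 against CD45RBhigh and 0.44 against CD45RBlow. Chst2, which 6-sulfates GlcNAc and so makes the acceptor that B4galt4 prefers in human, was higher in Treg than in CD45RBhigh cells by 2.26 (adjusted p = 0.000201). It differed by 0.084 between Treg and CD45RBlow cells (adjusted p = 0.898). Among the 15, 2 were higher and 1 lower in Treg against CD45RBhigh, 1 and 1 in Treg against CD45RBlow, and 3 and 0 in CD45RBlow against CD45RBhigh, where the 3 were St3gal6, Fut7 and Chst2. The 3 of 15 in Treg against CD45RBhigh and the 2 of 15 in Treg against CD45RBlow are near the 18.9% and 12.5% of all probe sets, and the 3 of 15 in CD45RBlow against CD45RBhigh compare with 12.6%. Medians of this list were -0.045, 0.080 and -0.066.

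Galectins bind LacNAc, and 8 were measured. Lgals1 and Lgals3 were higher in Treg than in CD45RBhigh cells, by 1.48 and 1.04, and in CD45RBlow than in CD45RBhigh cells, by 1.19 and 1.27. Lgals4 was lower in Treg than in CD45RBhigh cells, at -0.67, an adjusted p of 0.0494 that was lost in 7 of the 11 fits that left out 1 array. These 3 of 8 compare with 18.9% of all probe sets, and the 2 of 8 between CD45RBlow and CD45RBhigh with 12.6%. Between Treg and CD45RBlow cells 0 of 8 passed by limma, 2 did at an unadjusted p under 0.05, and 1 passed in the blocked fit. The Lgals1, Lgals3 and Lgals4 probe sets all carry the suffix for limited specificity.

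Of 6 measured lysosomal enzymes that remove galactose, GlcNAc or sugars beside them, 1 was higher and 2 lower in Treg than in CD45RBhigh cells. The beta-galactosidase gene Glb1, at 0.48, was the higher one, and Hexa, at -0.48, and Neu1, at -0.39, the lower ones. Neu1 removes sialic acid, and Hexa encodes a subunit of the enzyme that removes GlcNAc. These 3 of 6 compare with 18.9% of all probe sets, and all 3 calls were lost without Treg replicate 1. Glb1 was also lost without Treg replicate 4, Hexa without Treg replicate 2, and Neu1 in 7 of the 11 fits that left out 1 array, with a highest adjusted p of 0.0561 for Glb1, 0.0661 for Hexa and 0.146 for Neu1. In CD45RBlow against CD45RBhigh Glb1 passed at 0.39, a call lost in 10 of the 11 fits that left out 1 array, at adjusted p up to 0.123, and the blocked fit called 3 of the 6. Between Treg and CD45RBlow cells 0 of 6 passed by limma, 2 did at an unadjusted p under 0.05, and 3 passed in the blocked fit. The median of the 6 was -0.22 in Treg against CD45RBhigh, 0.010 in Treg against CD45RBlow and -0.13 in CD45RBlow against CD45RBhigh.

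Of 8 listed glycoproteins that carry poly-LacNAc, 5 were measured, and Ptprc, Spn and Slc2a1 had no matched row. Cd44, also an activated or memory marker above, and Icam1 were higher in Treg than in CD45RBhigh cells, by 1.44 and 1.04. These 2 of 5 compare with 18.9% of all probe sets. Both were also higher in CD45RBlow than in CD45RBhigh cells, where Cd44 averaged 9.31 against 7.81 and Icam1 differed by 0.76. There 12.6% of all probe sets passed. Without Treg replicate 1 the Cd44 difference in Treg cells had an adjusted p of 0.0596. Lamp1 was higher in Treg than in CD45RBlow cells by 0.31 (adjusted p = 0.0166), lost without Treg replicate 1 or 4. This 1 of 5 compares with 12.5% of all probe sets. The median of the 5 was 0.58, 0.13 and 0.44 in the 3 comparisons, against -0.039, 0.044 and -0.081 over all probe sets.

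**Figure D4:**
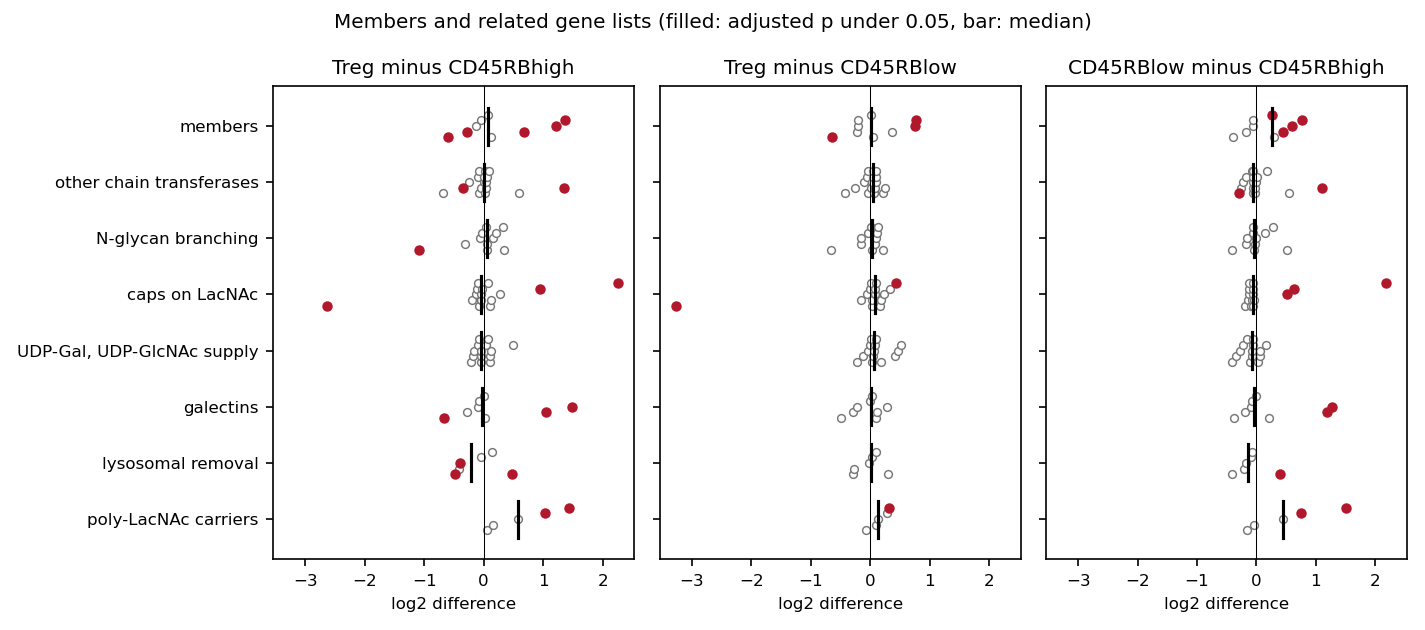
Log2 differences (horizontal axes) of the 9 genes and of the measured genes of 7 related lists in the 3 comparisons. Points are genes, filled where the adjusted p was under 0.05, and bars are medians. In Treg minus CD45RBhigh the carriers have the highest median, at 0.58, and the lysosomal enzymes the lowest, at -0.22.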

How the data were processed

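Per the labels, biotin-labelled cRNA from each of 11 samples was hybridised to a custom Affymetrix glycan gene chip. The deposited table holds 1 log2 value for each probe set and array, which the authors obtained with RMA (background correction, quantile normalization and a summary over probes), per the submitters' processing notes and the series text. No RMA version or detection call was given. For RNA extraction the labels give Trizol, whereas the series text gives RNeasy. No further filter was applied.

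Probe sets were named through RefSeq transcripts (GRCm38.p6 annotation): 984 of 1246 carry a RefSeq, 261 a UCSC and 1 another identifier. In R 4.3.3, limma 3.58.1 estimated a mean for each population from the 11 arrays together, and eBayes moderated the variances (8 residual and 2.87 prior degrees of freedom). Two-sided p-values were adjusted by Benjamini-Hochberg over the 1246 probe sets, separately for each comparison, with a threshold of 0.05 and 95% intervals. Calculations were tested on simulated data.

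The 10 genes and 7 lists (85 genes, 76 measured) were chosen with earlier results of these data known, and 1 further list gene and 1 further marker are not reported here. All 10 were to be named, with up to 4 genes a list by smallest adjusted p, and the 3 genes most correlated with each of the 3 genes of smallest F test p.

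Samples of 1 replicate number deviated together from their population means in 10 of 10 pairs (r from 0.31 to 0.56). Pairs of other numbers had r of 0.20 to 0.58 where both lay in replicates 1 and 2 or both in 3 and 4 (10 pairs), and -0.65 to -0.18 across these sets (20 pairs). The number was also fitted as a block. Python 3.11.15, pandas 2.3.3 and matplotlib 3.10.9 drew tables and figures.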

Additional observations from a re-analysis of the deposited data

Results flagged for a closer look

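In 74 groups of 4 arrays of the named genes, 1 array stood apart from the other 3 in 7, by a gap that, divided by the group's range, passed Dixon's 95% critical value. Chance gives about 1 in 20. B4galt1 in CD45RBhigh replicate 4 was 10.77, against 10.47 to 10.52 in the others (ratio 0.854). B4galt4 in CD45RBhigh replicate 3 was 4.06, against 4.31 to 4.35 (0.852). Without that array its Treg to CD45RBhigh call remained, while its CD45RBlow to CD45RBhigh call was lost.

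Among the related genes, Gcnt1 in CD45RBhigh replicate 2 read 2.33, against 2.92 to 2.95 (0.958), Mgat4a in CD45RBlow replicate 3 read 4.47, against 4.83 to 4.85 (0.955), and St3gal6 in CD45RBhigh replicate 4 read 7.18, against 7.59 to 7.63 (0.912). Pgm3 in CD45RBlow replicate 2 was 3.12, against 3.34 to 3.38 (0.852). Fut7 in CD45RBlow replicate 4 was 6.44, and the other 3 arrays all held 6.42 exactly (1.0), so that ratio reflects equal values.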

How the results depend on the processing

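Of the 12 differences called among the 9 genes, B4galt4 and Ggta1 in Treg against CD45RBhigh passed in all 22 alternatives. With replicates 3 and 4 only, 88 probe sets and 2 of the 9 genes passed between Treg and CD45RBhigh, 49 and 0 between Treg and CD45RBlow, and 63 and 0 between CD45RBlow and CD45RBhigh; fewer arrays entered that fit. The replicate block gave 245 probe sets in Treg against CD45RBlow and 271 in CD45RBlow against CD45RBhigh, and 262 there with numbers 1, 2 and 4 only, an alternative chosen after seeing the data. With the block no call among the 9 genes was lost, and the 3 it added are given above. With only the arrays compared, 3 of the 9 genes passed in Treg against CD45RBhigh. Leaving out each array gave 2 to 5 genes there, fewest without Treg replicate 1 or 2 and 3 without CD45RBhigh replicate 3. It gave 2 to 4 in CD45RBlow against CD45RBhigh, fewest without CD45RBlow replicate 1 or 2 or CD45RBhigh replicate 3. The causes were not tested.

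Among the 9 genes, signs turned for B4galt2 and B4galt1 only, in differences that never passed. B4galt2 in Treg against CD45RBhigh became 0.051 with the block, 0.027 with the block and numbers 1, 2 and 4, and 0.060 with replicates 3 and 4, and ran from -0.11 to 0.037 without each array. In Treg against CD45RBlow it became -0.0011 with equal array medians and -0.061 with replicates 3 and 4, and ran from -0.060 to 0.14 without each array. In CD45RBlow against CD45RBhigh it became 0.12 with replicates 3 and 4, and ran from -0.18 to 0.013 without each array. B4galt1 there ran from -0.087 to 0.013 without each array. A filter on dim probe sets removed Gcnt2. Other probe sets of a gene were not run, since each has 1.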
